A study of Mus musculus with 6 samples.

Results

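The genes described here are 49 genes of the unfolded protein response, the endoplasmic reticulum (ER) chaperones, the integrated stress response and the heat shock response. They were chosen by name and not by a rule on their measured values, though with earlier results of these data known. Of these, 48 have a row in the deposited table of 21269 genes, and 47 passed the filter on low values and were tested among 15650 genes. Hspa1a was below the filter, and Chac1 was not analysed here. They were measured by RNA sequencing in HL-1 cells, an immortalized line of mouse atrial cardiomyocytes, so every library derives from 1 line. Cells transfected with a control gapmer (LNA Control, 3 libraries) were compared with cells transfected with a gapmer against the long noncoding RNA Malat1 (LNA Malat1, 3 libraries). Gapmers are short DNA oligonucleotides with locked nucleic acid (LNA) ends, and the RNA they bind is cleaved by RNase H. Both groups were grown in Claycomb medium with serum and norepinephrine, received 50 nM of LNA with RNAiMAX 24 hours after seeding, and were harvested 48 hours later. The labels do not say whether the 3 libraries of a group came from separate cultures, so the p-values measure the spread between these libraries, which may be technical.

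The ER folds secreted and membrane proteins with the help of chaperones such as BiP (Hspa5), and unfolded protein is sensed there by IRE1 (Ern1), PERK (Eif2ak3) and ATF6. Activated IRE1 splices Xbp1 mRNA, ATF6 is cleaved to release a transcription factor, and both arms raise chaperones and ER-associated degradation, while PERK phosphorylates eIF2α and favours translation of Atf4, which drives Ddit3, Trib3 and amino acid synthesis genes. Unfolded protein in the cytosol instead activates HSF1, which raises Hspa1a, Hspa1b, Dnajb1 and other heat shock genes, a response known to protect cardiomyocytes.

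The values are normalized counts, that is, read counts per gene divided by 1 factor per library and rounded. Their sums were 4831007 to 4921406 per library in LNA Control and 4758777 to 4762957 in LNA Malat1, and the factors recovered from the rounding put the depth at 4511652 to 5594548 reads per library. Malat1 itself had 5051, 5197 and 4369 normalized counts under LNA Control against 2833, 2792 and 2732 under LNA Malat1, so the targeted RNA remained at 57.2% of the control level (log2 fold change of -0.80 with SE 0.07, adjusted p = 7.5e-06 by limma). Of 11 cardiomyocyte markers, 9 have a row, and their summed level was 3808 to 4156 in LNA Control and 3824 to 3954 in LNA Malat1. It was carried by Ryr2, Tnnt2 and Actc1, and its single members did not move alike. Actn2, the sarcomeric actinin of the Z disc, had 153, 105 and 144 under LNA Control against 235, 198 and 221 under LNA Malat1, a rise to 163% (log2 fold change of 0.71 with SE 0.12, adjusted p = 0.0011 by limma), Tnnt2 rose to 111% (0.15, limma adjusted p = 0.034), and Ryr2 stood at 91.6% without passing (-0.12, limma adjusted p = 0.17). The atrial and ventricular myosin genes Myh6 and Myh7 stayed between 0 and 7 normalized counts. The 4 fibroblast markers with a row, mostly Col1a1 and Col3a1, summed to 4329 to 5079 in LNA Control and 3845 to 4017 in LNA Malat1, and Col3a1 fell (-0.33, limma adjusted p = 0.0014). The 2 endothelial markers summed to 19 to 28 and 32 to 35, and the single leukocyte marker, Cd68, had 14 to 23 and 31 to 38, a rise of 0.79 on the log2 scale (limma adjusted p = 0.023). Their part in the results below was not tested.

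The 3 LNA Malat1 libraries lay closer together than those of LNA Control. Over 14522 genes, LNA Malat1 replicates 1 and 3 differed by a chi-square of 0.949 per gene and replicates 1 and 2 by 1.012 (chi-square p = 0.15), where sampling noise gives about 1. In genes with at least 1600 reads both pairs exceeded that noise (1.095 per gene over 1754 genes, chi-square p = 0.003, and 1.665 over 1612 genes, chi-square p = 1e-56), so neither is shown to be 1 library. Replicates 1 and 3, the closest pair, were averaged into 1 sample for the mean ± SD (n = 2 for LNA Malat1). That lowers the count of samples, but the SD can shrink where replicates 1 and 3 lie on either side of replicate 2. The test across genes and the percentages of control used all 6 libraries. LNA Control replicates were further apart, at 1.768 (replicates 2 and 3), 2.094 (replicates 1 and 2) and 4.179 (replicates 1 and 3) per gene. Replicates 2 and 3 were thus the closest control pair over all genes. For the stress genes, LNA Control replicate 3 stood apart. It was the lowest of its group in 35 of the 47 tested genes, compared with 33.2% of all genes tested, and it lay within the range of LNA Malat1 in 18 of them and below it in 13. LNA Malat1 replicate 3 was in turn the lowest of its own group in 27 of the 47, compared with 30.5% of all genes tested.

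Most stress genes differed little between the groups, and those that passed the test were mainly lower in LNA Malat1. A gene is termed called where its adjusted p was 0.05 or less and its change was 1.5-fold or more. By this rule, 1 of the 47 tested genes was lower, the ER stress sensor Atf6. None was called higher. Among all genes tested, 2.92% were called lower and 8.0% higher (457 and 1252 genes, or 718 and 748 with quantile normalization). At the adjusted p alone, 9 of the 47 fell (19.1%) and 1 rose (2.13%), against 14.0% lower and 14.3% higher among all genes tested. The 9 were Atf6, Trib3, Herpud1, Xbp1, Sdf2l1, Manf, Pdia6, Ddit3 and Pdia4, and the 1 was Hsph1. At an unadjusted p of at most 0.05, 14 of the 47 were lower (29.8%) and 1 was higher, against 19.2% and 20.7% of all genes tested and, where the mean reached 200 normalized counts (6815 genes), 29.7% lower. Limma with voom weights on the recovered reads also called none higher.

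Most stress genes were well expressed, and the share of genes that passed differed with level. Among these 6815 better expressed genes, 22.7% were lower and 10.1% higher at the adjusted p, and the share of stress genes that fell (19.1%) was near the first of these. The median log2 fold change of the 47 was -0.09, compared with 0.02 over all genes tested and -0.05 over the better expressed genes. The log2 fold change was negative in 36 (76.6%) and positive in 11, or 29 and 18 with quantile normalization. With the main settings it was negative in 47.2% of all genes tested and in 61.1% of the better expressed genes. All 3 LNA Malat1 libraries were below all 3 LNA Control libraries in 14 of the 47 genes (29.8%) and above them in 1. Of all genes tested, 20.8% and 20.5% were so separated. Of the 6815 better expressed genes, 2173 (31.9%) were separated lower and 1032 higher, so the share of stress genes was near theirs. Without LNA Control replicate 3, 19 of the 47 fell (40.4%) and the median was -0.14, against 15.0% lower among all genes then tested and 26.6% among the better expressed genes. The 10 that joined were Hspa5, Hsp90b1, Calr, Pdia3, Dnajc3, Hyou1, Asns, Psat1, Hspa4 and Hsp90ab1, at adjusted p from 0.0009 to 0.037. LNA Control replicate 3 was the lowest control library in each of the 10, so leaving it out raises their control mean. Of the 10, only Dnajc3 also passed on leaving out another single library, LNA Control replicate 1. In that fit 1 rose, where 16.8% of all genes did. Leaving out LNA Malat1 replicate 3 instead gave 6 lower (12.8%), a median of -0.07 and none higher, against 10.4% lower among all genes and 16.7% among the better expressed. With replicate 3 of both groups left out, an alternative chosen after seeing the data, 11 fell (23.4%) with a median of -0.12, against 9.09% and 16.1%.

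**Figure D1:**
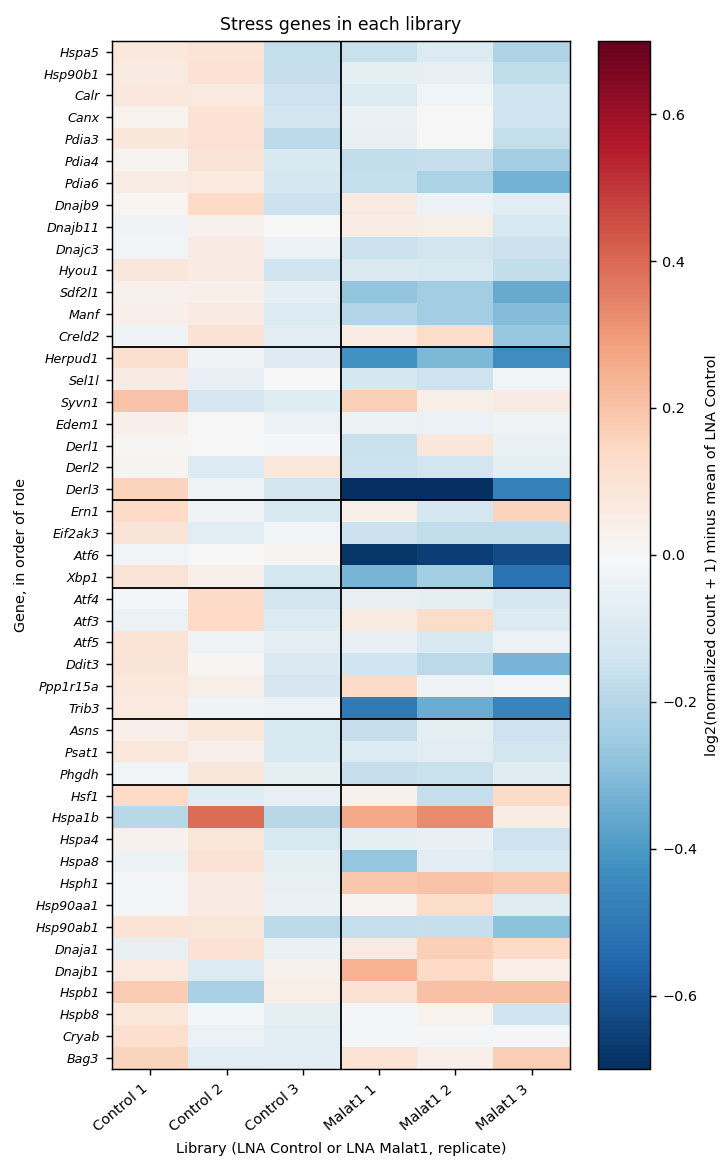
Heat map of the 47 tested genes, with 1 row per gene grouped by role and 1 column per library. Colour gives the difference of log2(normalized count + 1) from the mean of the LNA Control libraries and saturates beyond 0.7 in either direction, which Derl3 alone exceeds, and LNA Control replicate 3 is the lowest of its group in 35 of the 47 rows.

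**Figure D2:**
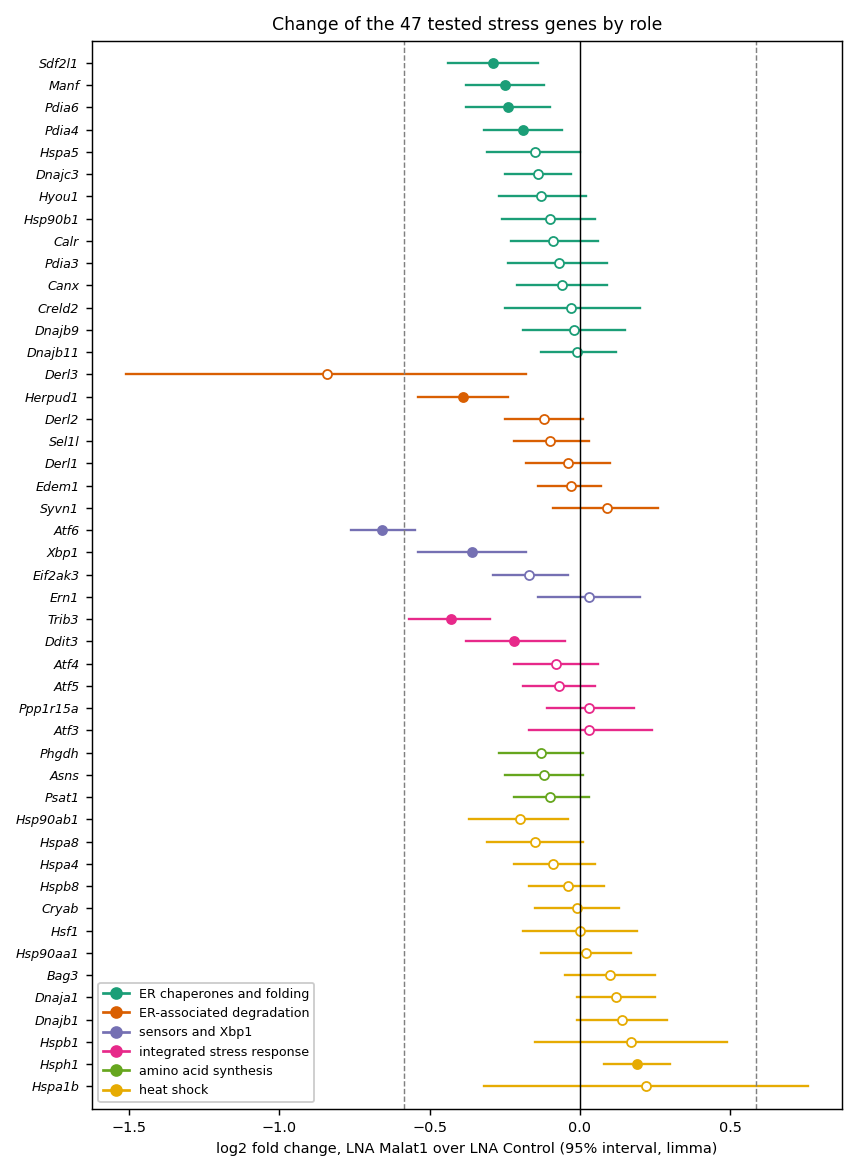
Log2 fold change of LNA Malat1 against LNA Control for each tested gene (points) with its 95% confidence interval (bars), grouped by role. Filled points have a limma adjusted p of at most 0.05, open points do not, and the dashed lines mark a fold change of 1.5; Atf6 at -0.66 is the filled point beyond them.

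**Figure D3:**
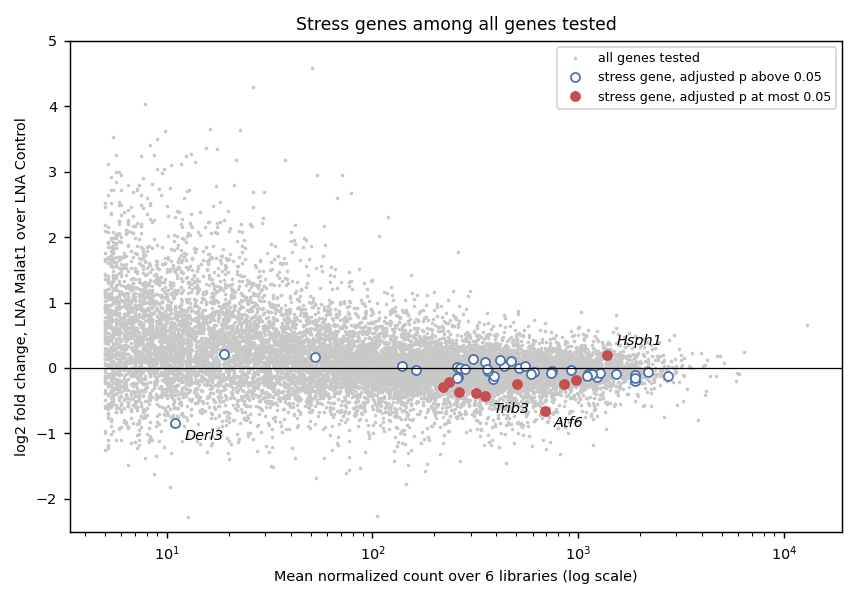
Log2 fold change against the mean normalized count over the 6 libraries, on a log axis, for all 15650 genes tested (grey) and the 47 stress genes (filled at an adjusted p of at most 0.05, open above it). The stress genes lie between -0.84 and 0.22, within the spread of all genes from -2.28 to 4.58.

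The sensors and Xbp1 held the one called gene. Atf6, which encodes an ER membrane protein whose released cytosolic part activates ER chaperone genes, lies on chromosome 1 (chr1:170704674-170867771, minus strand, mm10). It had 835, 844 and 858 normalized counts under LNA Control against 527, 535 and 547 under LNA Malat1. The groups were far apart, with means of 845.7 ± 11.6 (SD, n = 3) under LNA Control and 536.0 (n = 2) under LNA Malat1. No SD is given for the latter, because averaging its lowest and highest library (527 and 547) hides their spread. Atf6 thus fell to 63.4% of the control level (log2 fold change of -0.66 with SE 0.05 and a 95% interval from -0.76 to -0.55, adjusted p = 1.6e-06 by limma). LNA Control replicate 3, the lowest control library for most stress genes, was the highest for this gene.

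Xbp1 encodes the transcription factor made from the mRNA that IRE1 splices, and gene counts do not tell the spliced from the unspliced form. On chromosome 11 (chr11:5520659-5525893), it had 316, 304 and 273 normalized counts under LNA Control against 237, 252 and 207 under LNA Malat1. The groups did not overlap, and the gene fell to 77.9% of control (log2 fold change of -0.36 with SE 0.08, adjusted p = 0.0063 by limma), under the 1.5-fold minimum. Eif2ak3, which encodes PERK, had 436, 389 and 404 under LNA Control against 368, 363 and 363 under LNA Malat1. These libraries did not overlap either, but the difference of -0.17 (95% interval -0.29 to -0.04) missed the threshold narrowly (limma adjusted p = 0.051). Ern1, which encodes IRE1, had 602, 538 and 505 against 563, 503 and 609, with fully overlapping groups and an interval of the log2 fold change from -0.14 to 0.20.

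**Figure D4:**
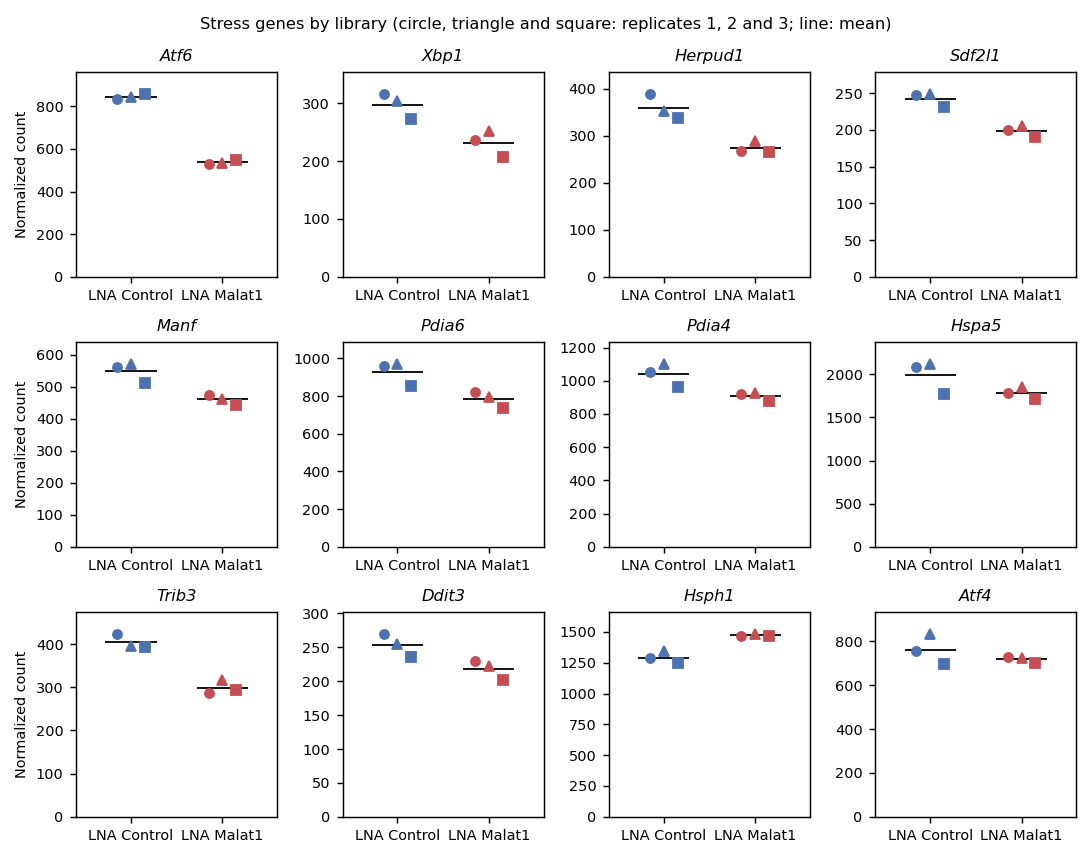
Normalized counts on axes that start at 0 in each library (circle, triangle and square for replicates 1, 2 and 3) with the group mean (line), for the 10 genes that passed the adjusted p and for Hspa5 and Atf4. The LNA Malat1 libraries of Atf6 lie between 527 and 547 and those of LNA Control between 835 and 858, and only Hsph1 among the genes that passed lies higher in LNA Malat1.

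Targets of these sensors carry known promoter elements, and the stretches that hold them are shown for the stress genes whose values the next paragraphs turn on. RefSeq promoters (GRCm38.p6, 250 bases before to 50 after a start site) matched 40 of the 49 genes by symbol, all but Atf6, Cryab, Derl1, Hsf1, Hsp90aa1, Hsp90ab1, Hspa8, Hyou1 and Manf. The ER stress element ERSE (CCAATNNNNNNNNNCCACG), bound by ATF6 with NF-Y, was found on either strand in Calr, Canx, Creld2, Derl3, Dnajc3, Hsp90b1, Hspa5, Pdia6 and Syvn1, that is, 9 of the 40, and in 0.119% of all 32851 promoters. ERSE-II (ATTGGNCCACG) was found in Herpud1 and Dnajb11 and in 0.0365% of all promoters. The UPRE core (TGACGTG), bound by XBP1, was in Hspa5 and in 2.01% of all promoters. In the stretches below, 5′ to 3′ on the strand of the gene, capitals mark ERSE (in Hspa5 stretch b, Hsp90b1 with 2 copies, Pdia6, Dnajc3 and Derl3), the UPRE core (Hspa5 stretch a), and for Herpud1 first the amino acid response element CARE (TGATGNAA, on the opposite strand) and then ERSE-II. In Derl3 and in the downstream copy of Hsp90b1, ERSE is also on the opposite strand, so its letters appear there as the reverse complement. Stretch b of Hspa5 lies inside an exon of the longer gene model of the table and is shown short.
Hspa5 stretch a, chr2:34771903-34771969, plus strand: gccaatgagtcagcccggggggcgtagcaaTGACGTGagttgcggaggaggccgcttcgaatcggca
Hspa5 stretch b, chr2:34772020-34772048, plus strand: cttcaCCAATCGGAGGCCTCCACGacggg
Hsp90b1, chr10:86705510-86705686, minus strand: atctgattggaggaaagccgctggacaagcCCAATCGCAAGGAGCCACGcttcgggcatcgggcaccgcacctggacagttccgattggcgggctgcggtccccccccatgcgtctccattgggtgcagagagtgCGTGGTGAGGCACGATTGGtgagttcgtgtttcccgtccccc
Pdia6, chr12:17266461-17266539, plus strand: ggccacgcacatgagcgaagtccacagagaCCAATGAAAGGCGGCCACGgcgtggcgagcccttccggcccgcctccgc
Dnajc3, chr14:118937797-118937875, plus strand: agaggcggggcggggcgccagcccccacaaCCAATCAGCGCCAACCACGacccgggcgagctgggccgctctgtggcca
Derl3, chr10:75893212-75893290, plus strand: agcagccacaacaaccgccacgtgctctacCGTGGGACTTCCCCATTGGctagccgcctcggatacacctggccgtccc
Herpud1, chr8:94386287-94386417, plus strand: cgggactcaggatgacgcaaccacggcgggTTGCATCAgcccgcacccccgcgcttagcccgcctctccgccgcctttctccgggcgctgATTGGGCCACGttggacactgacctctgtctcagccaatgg

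The 11 genes with ERSE or ERSE-II had a median log2 fold change of -0.10 and 2 of them fell (18.2%), Pdia6 and Herpud1. The 27 tested genes with a promoter entry and neither element had a median of -0.07, with 5 lower (18.5%) and 1 higher at the adjusted p. Of the better expressed genes, 22.7% fell. With LNA Control replicate 3 left out, 6 of the 11 fell (54.5%, median -0.16) and 9 of the 27 (33.3%, median -0.10), against 26.6% of the better expressed genes. Without LNA Malat1 replicate 3 instead, 1 of the 11 (9.09%) and 3 of the 27 (11.1%) fell, against 16.7%. With both left out, 3 of the 11 (27.3%) and 4 of the 27 (14.8%) fell, against 16.1%. A match in these letters is a description of the promoter and not of binding.

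**Figure D5:**
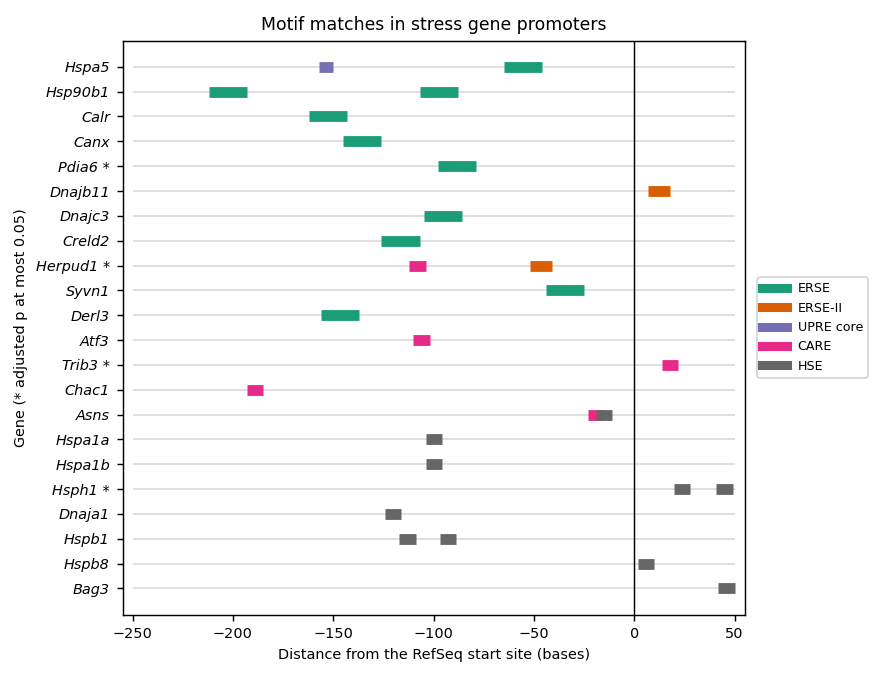
Position of each motif match (coloured marks) relative to the RefSeq start site, in bases, in the promoters of the stress genes that hold one. Asterisks mark genes with a limma adjusted p of at most 0.05, both promoter entries of Hsph1 are drawn together, and the ERSE of Pdia6 begins 98 bases before the start.

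Among the 14 ER chaperones and folding genes, every log2 fold change was negative, between -0.29 and -0.01 with a median of -0.11. Of the better expressed genes, 61.1% were negative. At the adjusted p, 4 of the 14 passed (28.6%), against 22.7% lower among the better expressed genes. Creld2, Dnajb9 and Dnajb11 turned positive with quantile normalization, with library totals set equal, and without LNA Control replicate 2 or LNA Malat1 replicate 3. Sdf2l1, a partner of ER J-domain proteins, had 248, 249 and 231 normalized counts under LNA Control against 200, 205 and 190 under LNA Malat1. It fell to 81.7% (log2 fold change of -0.29 with SE 0.07, adjusted p = 0.0070 by limma). Manf, a secreted ER stress protein that binds BiP, had 563, 572 and 513 under LNA Control against 476, 463 and 444 under LNA Malat1, a fall to 83.9% (log2 fold change of -0.25 with SE 0.06, adjusted p = 0.0069 by limma). Of the exonic bases of Manf, 9.3% are shared with other annotated genes. In both genes the highest LNA Malat1 library lay under the lowest LNA Control library.

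A pair of isomerases that help proteins form disulfide bonds passed with smaller margins. Pdia6 had 958, 971 and 851 under LNA Control against 823, 793 and 736 under LNA Malat1 (84.6% of control, log2 fold change of -0.24 with SE 0.06, adjusted p = 0.014 by limma). Pdia4 had 1050, 1102 and 962 against 918, 926 and 880 (87.5%, log2 fold change of -0.19 with SE 0.06, adjusted p = 0.028 by limma). Neither gene's groups overlapped. Pdia6 no longer passed without LNA Control replicate 2 or LNA Malat1 replicate 3 (adjusted p of 0.075 and 0.087), and Pdia4 no longer passed without LNA Control replicate 2 or any 1 LNA Malat1 library (0.068 to 0.12).

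Hspa5, which encodes the main ER chaperone BiP, had 2090, 2121 and 1769 normalized counts under LNA Control against 1781, 1858 and 1717 under LNA Malat1. LNA Control replicate 3 lay among the LNA Malat1 libraries, so the groups overlapped. The difference of -0.15 (95% interval -0.31 to -0.0006) did not pass (limma adjusted p = 0.12). Without LNA Control replicate 3 it was -0.24 and passed (limma adjusted p = 0.0024), but it did not on leaving out any other single library (0.16 to 0.38). Hsp90b1, the ER member of the Hsp90 family, showed the same dependence, with 2030, 2087 and 1740 against 1854, 1872 and 1722 and an adjusted p of 0.32 with and 0.014 without that library. The groups of Dnajc3, an ER co-chaperone that restrains PERK, did not overlap, at 1266 to 1353 in LNA Control and 1172 to 1190 in LNA Malat1 (log2 fold change -0.14, limma adjusted p = 0.051). The lectin chaperones Calr and Canx, Pdia3 and the large Hsp70 relative Hyou1 had log2 fold changes from -0.13 to -0.06, and Dnajb9, Dnajb11 and Creld2 from -0.03 to -0.01, and none of these 7 passed with all libraries. Without LNA Control replicate 3, 10 of the 14 fell (71.4%), against 26.6% of the better expressed genes. Without LNA Malat1 replicate 3, 2 fell (14.3%), against 16.7%. With replicate 3 of both groups left out, 6 fell (42.9%), against 16.1%.

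Of the 7 genes of ER-associated degradation, which moves misfolded proteins to the cytosol for the proteasome, 1 passed, as lower (14.3%). That is near the 14.0% of all genes tested that fell and under the 22.7% of the better expressed genes. Herpud1, an ER membrane adaptor of the degradation complex (chr8:94386438-94395377), had 389, 353 and 338 normalized counts under LNA Control against 268, 289 and 266 under LNA Malat1. The groups did not overlap, and the gene fell to 76.2% (log2 fold change of -0.39 with SE 0.07 and a 95% interval from -0.54 to -0.24, adjusted p = 0.0011 by limma). Derl3, a channel component of this pathway with few reads, had 16, 14 and 13 under LNA Control against 6, 7 and 10 under LNA Malat1. Its groups were separate and its log2 fold change of -0.84 was the most negative of the stress genes, but with an interval from -1.51 to -0.18 it missed the threshold (limma adjusted p = 0.057). The ubiquitin ligase Syvn1, its partner Sel1l, the mannosidase-like Edem1 and the channel proteins Derl1 and Derl2 had log2 fold changes between -0.12 and 0.09, with overlapping groups.

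In the integrated stress response, 2 of the 6 tested regulators fell (33.3%), Trib3 and Ddit3. Of all genes tested 14.0% fell, and of the better expressed genes 22.7%. Trib3, a pseudokinase that restrains ATF4 and AKT signalling (chr2:152337422-152344032, minus strand), had 424, 396 and 393 normalized counts under LNA Control against 286, 318 and 293 under LNA Malat1. With 404.3 ± 17.1 (SD, n = 3) against 303.8 ± 20.2 (SD, n = 2), the libraries were well separated. Over all 6 libraries Trib3 fell to 73.9% (log2 fold change of -0.43 with SE 0.06 and a 95% interval from -0.57 to -0.30, adjusted p = 0.00027 by limma). Ddit3, which encodes the transcription factor CHOP, had 270, 255 and 236 under LNA Control against 230, 222 and 202 under LNA Malat1. These libraries did not overlap, and the fall to 85.9% passed by a small margin (log2 fold change of -0.22 with SE 0.08, adjusted p = 0.047 by limma). It was lost on leaving out any 1 library except LNA Control replicate 3 (0.064 to 0.18). Of its exonic bases, 10.9% are shared with other annotated genes, and reads on several genes were left out of the counts.

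Atf4 mRNA had 756, 834 and 695 normalized counts under LNA Control against 729, 723 and 699 under LNA Malat1. All 3 LNA Malat1 libraries lay within the control range, and the difference of -0.08 had an interval from -0.22 to 0.06 (limma adjusted p = 0.36). ATF4 is controlled mainly through its translation, which these counts do not measure. Atf3, Atf5 and Ppp1r15a, the phosphatase subunit that reverses eIF2α phosphorylation, had log2 fold changes from -0.07 to 0.03, with overlapping groups.

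CARE, the element through which ATF4 acts, was found in the promoters of Asns, Atf3, Chac1, Herpud1 and Trib3 and in 3.97% of all promoters. In Trib3 the match, TTACATCA on the strand of the gene, begins 14 bases after the RefSeq start. Of the 4 tested genes with a match, Trib3 and Herpud1 fell, whereas Atf3 and Asns did not pass with all libraries. That is 50.0% of only 4 genes, against 14.0% of all genes tested and 22.7% of the better expressed genes. Herpud1 also holds ERSE-II. The 3 amino acid synthesis genes stood at -0.13 (Phgdh), -0.12 (Asns) and -0.10 (Psat1). Asns, which makes asparagine, had 1180, 1215 and 1067 under LNA Control against 1029, 1105 and 1042 under LNA Malat1, with an adjusted p of 0.15, or 0.017 without LNA Control replicate 3. Psat1, of serine synthesis, had an adjusted p of 0.22 and 0.027 in these fits. The groups of Phgdh, the first enzyme of serine synthesis, did not overlap (260 to 286 against 242 to 256, limma adjusted p = 0.14).

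The heat shock genes were spread evenly over both directions. The 13 tested had a median log2 fold change of 0.02, with 7 positive and 6 negative (9 and 4 with quantile normalization). Of these, Hsph1 passed the adjusted p, as higher (7.69%), against 14.3% higher among all genes tested and 10.1% among the better expressed genes. Hsph1 encodes Hsp110, a nucleotide exchange factor for Hsp70 (chr5:149614287-149636376, minus strand). It had 1286, 1343 and 1246 normalized counts under LNA Control against 1471, 1485 and 1467 under LNA Malat1, and the groups did not overlap. It rose to 114% of control (log2 fold change of 0.19 with SE 0.05 and a 95% interval from 0.08 to 0.30, adjusted p = 0.014 by limma), and no longer passed on leaving out any 1 LNA Malat1 library (0.057 to 0.065).

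The heat shock element of 2 facing units (GAANNTTC) was in the promoters of 8 of the 40 genes, Asns, Bag3, Dnaja1, Hspa1a, Hspa1b, Hspb1, Hspb8 and Hsph1, and in 7.86% of all promoters. The element of 3 units (GAANNTTCNNGAA) was in Hsph1 alone among them and in 0.603% of all promoters. In Hsph1 it is on the opposite strand and reads TTCTGGAAAGTTC on the strand of the gene, after the start site. The 7 tested genes with the first element had a median log2 fold change of 0.12, and Hsph1 was the one that passed (14.3%). Among all genes tested, 14.3% were higher.

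Hsf1, the factor that activates these genes, had 293, 251 and 256 normalized counts under LNA Control against 272, 237 and 292 under LNA Malat1. The groups overlapped, and the log2 fold change of -0.0001, whose sign depended on the processing, had an interval from -0.19 to 0.19. The inducible Hsp70 genes were close to silent. Hspa1b had 15, 23 and 15 under LNA Control against 21, 22 and 18 under LNA Malat1 (interval -0.32 to 0.76), and Hspa1a had 0, 2 and 3 against 1, 5 and 2. Of 75-base windows in their transcripts, 55.8% of Hspa1b and 61.7% of Hspa1a also occur in another gene's transcripts, in the main each other's, and reads that align to several regions were left out. Their levels are therefore uncertain, as are those of Hspb1 (46.4% of windows), Hsp90aa1 (42.8%), Hspa8 (33.0%) and Dnaja1 (18.4%). The same holds for Phgdh (35.8%) outside the heat shock genes. No window of Atf6, Xbp1, Herpud1, Trib3, Sdf2l1, Pdia6, Pdia4, Hspa5 or Hsph1 was shared.

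Hsp90ab1, the constitutive cytosolic Hsp90, had 2171, 2150 and 1788 under LNA Control against 1807, 1816 and 1661 under LNA Malat1. LNA Control replicate 3 lay below 2 of the LNA Malat1 libraries, and the difference of -0.20 did not pass (95% interval -0.37 to -0.04, limma adjusted p = 0.060) but did without that library (-0.30, limma adjusted p = 0.0009). Hspa4, an Hsp110 relative, behaved alike, with adjusted p of 0.32 with all libraries and 0.037 without it. Hspa8, the constitutive Hsp70, had 264, 290 and 258 against 224, 257 and 250, which did not overlap but did not pass either (log2 fold change -0.15, limma adjusted p = 0.15). The HSF1 target Dnajb1 (0.14), the co-chaperones Dnaja1 (0.12) and Bag3 (0.10), Hsp90aa1 (0.02) and the small heat shock proteins Hspb1 (0.17), Hspb8 (-0.04) and Cryab (-0.01) had overlapping groups.

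Levels per kilobase of exon in LNA Control place these values. Hsp90ab1 was the most abundant of the stress genes at 679 normalized counts per kilobase, followed by Hsp90b1 at 484, Canx at 475 and Hspa5 at 471, and the last 3 did not differ beyond their spread over libraries. Atf4 was at 323 per kilobase, Trib3 at 190, Ddit3 at 148, Atf6 and Xbp1 at 91.6 each and Hsf1 at 37.6. Hspa1b, at 6.30, and Derl3, at 7.19, were the lowest of those tested.

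The other genes of the same pathways were counted by list. Of 64 other ER folding, translocation and degradation genes tested, 16 fell (25.0%) and 1 rose (1.56%), with a median log2 fold change of -0.10, and the share that fell was near the 22.7% of the better expressed genes. Leaving out LNA Control replicate 3 gave 18 lower (28.1%), 3 higher and a median of -0.12, against 26.6% lower among the better expressed genes. Without LNA Malat1 replicate 3, 10 fell (15.6%, against 16.7%), and with replicate 3 of both groups left out 6 fell (9.38%, against 16.1%). The one called was Dnajc1, an ER membrane J-domain protein, at 623, 719 and 713 normalized counts under LNA Control against 359, 380 and 387 under LNA Malat1. The groups were far apart and the gene fell to 54.8% (log2 fold change of -0.86 with SE 0.07, adjusted p = 1.7e-06 by limma). Others that fell were Pdia5 (-0.55), Uggt2, which tags misfolded glycoproteins (-0.53), the BiP exchange factor Sil1 (-0.41) and the oxidase Ero1l (-0.24), and Wfs1, an ER calcium regulator, rose (0.30).

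Of 46 other ATF4 and amino acid response genes tested, 10 fell (21.7%) and 2 rose (4.35%), with a median of -0.13. The share that fell was near the 22.7% of the better expressed genes. Gars, the glycyl-tRNA synthetase, had 1483, 1468 and 1250 under LNA Control against 954, 1018 and 924 under LNA Malat1. Its groups did not overlap, and it fell to 68.9% (log2 fold change of -0.53 with SE 0.07, adjusted p = 0.00013 by limma). Cth, the folate enzymes Mthfd1l and Shmt2, Ddit4 and Cebpg also fell, while Sesn2 (0.28) and Pycr1 (0.26), both known ATF4 targets, rose. Without LNA Control replicate 3, 23 fell (50.0%) and 1 rose, against 15.0% lower among all genes then tested and 26.6% among the better expressed genes. Without LNA Malat1 replicate 3, 6 of the 46 fell, a share under the 16.7% of the better expressed genes and above the 10.4% of all genes. With replicate 3 of both groups left out, 10 fell (21.7%), against 16.1% of the better expressed genes and 9.09% of all genes. The share of 50.0% was thus seen only with LNA Control replicate 3 left out and LNA Malat1 replicate 3 kept, among these fits.

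Of 72 other cytosolic and mitochondrial chaperone genes tested, 9 fell (12.5%) and 6 rose (8.33%), with a median of -0.03. This compares with 14.0% and 14.3% of all genes tested and 22.7% and 10.1% of the better expressed genes. The counts were 14 (19.4%) and 5 (6.94%), with a median of -0.06, when LNA Control replicate 3 was left out. In that fit 15.0% of all genes fell and 16.8% rose, and 26.6% and 11.5% of the better expressed genes. Without LNA Malat1 replicate 3, 8 fell (11.1%), against 16.7% of the better expressed genes. With replicate 3 of both groups left out, 9 fell (12.5%), against 16.1%. Those that fell included the prefoldin subunit Pfdn1 (-0.53), the mitochondrial Hsp90 Trap1 (-0.51), the Hsp70 exchange factors Bag4 (-0.49) and Bag1 (-0.47) and the mitochondrial protease subunit Clpx (-0.33). Those that rose were Hspa2 (0.39), Dnajb4 (0.34), Hspb6 (0.32), Dnajb2 (0.30), Hspa4l (0.22) and Fkbp5 (0.17), and none of the 72 was called.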

How the data were processed

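RNA of 6 libraries (3 per group) was made with a kit that marks strand, and whether the counting used strand is not given in the sources used here. Per the study's methods and the submitters' processing notes, the authors trimmed reads (Trimmomatic 0.39), aligned them to mm10 (STAR 2.7.7a) and counted those at least partly on exons (featureCounts 1.6.5), leaving out reads on several genes or regions. What the authors deposited is a score (counts divided by 1 factor per library, then rounded) rather than raw counts, so count tests were not used. Genes with a mean of at least 5 were tested on log2(normalized count + 1) with limma 3.58.1 in R 4.3.3 (eBayes with an intensity trend, two-sided, Benjamini-Hochberg over all genes tested), which was tested on simulated data. Fold changes are on that scale, which understates changes of low genes. With 3 libraries per group, an exact permutation p cannot fall under 0.1.

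The genes and pathway lists were chosen with earlier results of these data known. Values per library are printed for genes past the adjusted p and for Hspa5, Xbp1, Atf4, Ddit3, Hsf1, Hspa1a and Hspa1b. Other genes printed singly, and the pathway genes under the fold minimum, were chosen after their values were seen. Exon lengths, shared exons and shared 75-base windows came from GENCODE M21, on the build of the table. Alternatives were other pseudocounts, scalings and filters, a replicate block, voom weights on the recovered reads (approximate counts), LNA Malat1 replicates 1 and 3 as 1 sample, other fold thresholds, and leaving out each library. Leaving out replicate 3 of both groups was added after seeing the data.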

Additional observations from a re-analysis of the deposited data

How the results depend on the processing

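Of the 10 stress genes that passed the adjusted p, 6 passed in each of 16 alternatives (Atf6, Trib3, Herpud1, Xbp1, Sdf2l1 and Manf), whereas Pdia6 passed in 14, Hsph1 in 12, Pdia4 in 9 and Ddit3 in 6. Of those that missed it, Dnajc3 passed in 7 alternatives, Eif2ak3 in 5 and Hsp90ab1 in 3. Atf6 had log2 fold changes from -0.67 to -0.60. The count of stress genes that fell (9) ranged from 6 (without LNA Malat1 replicate 3) to 19 (without LNA Control replicate 3) on leaving out 1 library, and the count that rose (1) from 0 (without any 1 LNA Malat1 library) to 3 (without LNA Control replicate 1, where Syvn1 and Bag3 joined Hsph1). It was 2 with quantile normalization and 0 when replicates 1 and 3 of LNA Malat1 were merged. With replicate 3 of both groups left out, an alternative added after seeing the data, 11 fell and 0 rose. The count of called lower stress genes (1) was 2 with a pseudocount of 5 and 2 with quantile normalization, where Derl3 joined Atf6, and 0 both in a test against a 1.5-fold change and at a 2-fold minimum. None was called higher in any alternative.

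Over all genes, 1252 were called higher and 457 lower. With quantile normalization the counts were 748 and 718, in a test against a 1.5-fold change 192 and 99, and at a 2-fold minimum 742 and 99. Genes called higher numbered 317 with a mean of at least 50 and 796 with that merging, and 769 to 1621 on leaving out 1 library (769 without LNA Malat1 replicate 1). The scalings moved the median of all genes by less than 0.1.

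The log2 fold change of Hsf1 turned to 0.05 with quantile normalization, 0.04 with library totals set equal and 0.01 with voom weights, and lay between -0.07 and 0.08 on leaving out 1 library (0.07 without LNA Control replicate 1, with 0.08 where LNA Malat1 replicate 2 was left out). Hspa1b turned to -0.14 with quantile normalization. The cause was not tested. The labels give both groups replicates 1 to 3, but same-numbered libraries deviated together by correlations of 0.0858, 0.182 and 0.083, so they were not taken as pairs. With the replicate number as a block, 13 stress genes fell and 1 rose, against 2266 lower and 2389 higher of the 15650 genes tested. Of the 6815 better expressed genes, 1631 fell and 792 rose in that fit. Counts limit Derl3, Hspa1b and Hspa1a, which had 0 to 23 normalized counts.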

Other observations

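Gene span, from the first to the last base in the deposited table, moved with the change over all genes. Among the tested genes with a mean of at least 200 normalized counts, those under 20 kb (2270 genes) had a median log2 fold change of -0.04 and 1.15% were called lower. Those of 100 to 200 kb (692 genes) had a median of -0.08 and 5.2% called lower, and those of 200 kb or more (326 genes) had a median of -0.23, with 12.0% called lower. Atf6, the called stress gene, spans 163.1 kb and is the longest of the stress genes, followed by Ern1 at 93.2 kb and Eif2ak3 at 60.7 kb. Its log2 fold change of -0.66 lies below the median of genes of 100 to 200 kb, while Ern1, the next longest, was at 0.03. Genes of 50 to 100 kb with a mean of at least 200 (1265 genes) had a median of -0.04, with 3.24% called lower. Some other pathway genes printed as lower are long too, such as Dnajc1 (chr2:18195654-18392830), Sil1 (chr18:35266396-35499780) and Mthfd1l (chr10:3973118-4167081). Gars (chr6:55038007-55079500) and Ero1l (chr14:45283087-45318771) are shorter. Over all genes tested, 28.8% of those of 100 to 200 kb and 44.0% of those of 200 kb or more fell at the adjusted p. Among those with a mean of at least 200, these shares were 34.0% and 54.6%. The part of span in the change of Atf6 or of these genes was not tested.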
